A study of Bos taurus with 6 samples.

Results

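The comparison sets the 4 libraries of bovine embryos depleted of a NOTCH pathway component against the 2 libraries of control embryos. Both depletions entered as 1 pool: 2 libraries of the NOTCH1 knockdown (NOTCH1_KD) and 2 of the RBPJ knockdown (RBPJ_KD). The control embryos (NC) had been injected with a nonspecific small interfering RNA (siRNA), an agent that directs the degradation of a matching messenger RNA. The labels name an siRNA for the control group alone, and the sources used here do not give the number or sequence of the knockdown agents or the stage of injection. All embryos were late morulae collected 6 days after in vitro fertilization, and each of the 6 libraries came from a pool of 15 embryos. Genes whose 4 knockdown values all lay above both control values, or all below both, are called the shared response here. Of 12101 named genes whose mean reached 10, 963 were higher in this sense and 959 were lower, together 1922 genes. The values are the authors' scaled read counts, so they compare a gene between libraries and not 1 gene with another. In bulk pools, fewer cells of a type and less RNA per cell cannot be told apart.

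NOTCH receptors sit in the cell membrane and are activated by ligands on neighbouring cells. The protease gamma-secretase then frees the receptor's intracellular domain, which enters the nucleus and binds RBPJ, a DNA-binding protein, together with a Mastermind coactivator to switch on genes such as those of the HES and HEY families. Without the intracellular domain, RBPJ can hold the same genes down through corepressors. NOTCH1 and RBPJ are thus consecutive steps of 1 pathway, and NOTCH signalling is known for its part in cell fate choices, including trophectoderm formation in mouse embryos. The pooled comparison asks which transcripts lie on the same side of the control when either step is depleted.

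Library totals ran from 10365700 to 10815600 scaled counts. The approximate depth was 9610000 to 13700000 reads, inferred by taking the most frequent value near 1 in each library as 1 read. Of the low values, 75.1% to 80.1% per library lay near whole multiples of that value, so the depth is a rough estimate. Markers of the early embryo were high in all 6 libraries: POU5F1, a pluripotency factor, ran from 10911 to 12942, and CDH1, the epithelial cadherin, from 10154 to 12325. The trophectoderm factors CDX2 and GATA3 and the pluripotency factor NANOG were present in every library, and SOX2 was not analysed here. No label ties a replicate to an oocyte collection of its own. The p-values therefore refer only to the spread among these 6 libraries, some of which may be technical.

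The targeted transcripts were checked first. RBPJ stood at 447 and 391 in the controls, 361 and 399.6 in the NOTCH1 knockdown and 121 and 94.5 in the RBPJ knockdown. Only the libraries of the RBPJ knockdown were low, and the NOTCH1 knockdown overlapped the control. NOTCH1 stood at 69.6 and 139.8 in the controls, 48.03 and 49.5 in the NOTCH1 knockdown and 50.02 and 125 in the RBPJ knockdown. Its control libraries were far apart, and the second RBPJ knockdown library lay between them. NOTCH1 therefore gives a weak check of the NOTCH1 label, and neither targeted gene belonged to the shared response. The pooled log2 fold change was -0.66 ± 0.36 (SE) for NOTCH1 and -1.05 ± 0.16 for RBPJ (limma adjusted p = 0.783 and 0.13). For NOTCH1 it was -1.16 without the first control, -0.16 without the second control and -0.33 without the first RBPJ library.

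The shared response held 7.96% of the genes tested on the higher side and 7.92% on the lower side, 15.9% together, and it is a description of these 6 libraries with no test of its own. In the test of the pooled contrast across all genes (limma, group means over the 6 libraries, Benjamini-Hochberg adjusted p below 0.05), 0 genes were higher and 0 were lower, which is 0.0% of the genes in each direction. At an unadjusted p below 0.05 the same fit gave 509 higher genes (4.21%) and 279 lower genes (2.31%), 788 in all (6.51%). The smallest adjusted p was 0.13, for B3GNT6 and RBPJ. With the replicate number as a block, 39 genes were higher (0.322%) and 20 were lower (0.165%) at the adjusted threshold, 59 in all (0.488%). Of these 59, 44 belonged to the shared response, 31 higher and 13 lower, and 15 had overlapping groups. Blocked calls and membership are read from the same 6 libraries, so this count is a description and no independent support. The labels do not say what a replicate number stands for, and a call that rests on the block is named as such below.

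**Figure D1:**
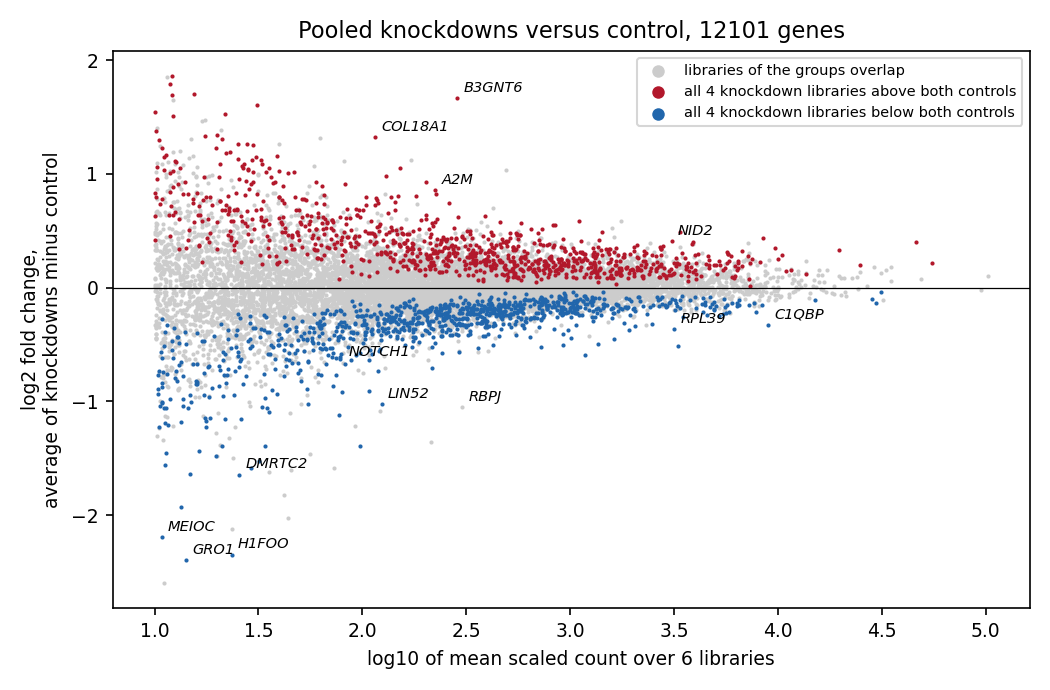
Log2 fold change of the pooled knockdowns against the control (vertical axis) by the log10 of the mean scaled count over the 6 libraries (horizontal axis), with 1 point for each of the 12101 genes tested. Red and blue points are the 963 higher and 959 lower genes of the shared response, and grey points are genes whose groups overlap, among them RBPJ at -1.05 and NOTCH1 at -0.66.

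Most differences in the shared response were small. The median log2 fold change was 0.31 among the higher genes and -0.26 among the lower ones, while the median of all genes tested was -0.0003. At least a 1.5-fold difference was seen in 178 higher and 124 lower members, and at least a 2-fold difference in 50 and 39. Of these 89 members, 4 had a mean of at least 100: B3GNT6, COL18A1, UCP2 and LIN52, named here after their values were seen. The other members past 2-fold were low transcripts. Of all 148 genes tested past 2-fold in the pooled contrast, 89 had groups that did not overlap, against 15.9% of all genes tested. Fold change and overlap are read from the same 6 libraries, so this count is a description. The distance between the nearest knockdown library and the nearest control library, on the log2(value + 1) scale, had a median of 0.079 among higher and 0.067 among lower members. It reached 0.1 in 400 higher and 319 lower genes, and 0.5 in 31 and 20.

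The share of genes in the response differed little with expression level below a mean of 1000. Of 3644 genes with a mean from 10 to 100, 7.44% were higher and 7.38% lower, and of 6109 genes from 100 to 1000, 7.33% and 8.63%. Among the 2348 genes with a mean of 1000 or more, 10.4% were higher and 6.94% lower. The median size of a member's log2 fold change was 0.58, 0.25 and 0.18 in these bins. Membership at the edge is decided by very small distances. FRMD4A and EIF2S3 were just inside: FRMD4A had 350.5 in its nearest control library and 351 in its nearest knockdown library on rounding, and EIF2S3 had 2117 and 2116. UQCC1 and UTP6 were just outside, with nearest libraries at 500.2 and 500.2 and at 5914 and 5914, equal at this rounding.

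The clearest higher transcript was B3GNT6, which encodes a glycosyltransferase that builds core 3 O-glycans of mucins. It stood at 117 and 106 in the controls, 527 and 272 in the NOTCH1 knockdown and 427 and 264 in the RBPJ knockdown. All 4 knockdown libraries were more than 2-fold above either control, and within the knockdowns both first replicates were above both second ones. The mean was 112 ± 8.06 (SD, n = 2) for controls and 372 ± 127 (SD, n = 4) for knockdowns, a ratio of 3.34. The log2 fold change was 1.67 ± 0.25 (SE, limma adjusted p = 0.13, and 9.18e-06 with the replicate block). Without the second NOTCH1 library B3GNT6 also passed (limma adjusted p = 0.0347), as it did without the second RBPJ library (0.0452).

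A2M, a secreted protease inhibitor, stood at 148 and 140.5 in the controls, 234 and 253 in the NOTCH1 knockdown and 249 and 323 in the RBPJ knockdown. Its controls were nearly equal and all knockdown libraries were higher, by 0.86 ± 0.16 (limma adjusted p = 0.418, and 0.0128 with the block). COL18A1, a collagen of basement membranes, stood at 67.6 and 44.8 in the controls, 179.9 and 132 in the NOTCH1 knockdown and 178 and 89.3 in the RBPJ knockdown. The second RBPJ library came closest to the controls, and the log2 fold change was 1.33 ± 0.29 (limma adjusted p = 0.549, and 0.00445 with the block). LRRN2, a leucine-rich repeat membrane protein, stood at 126 and 114 in the controls, 239 and 227 in the NOTCH1 knockdown and 194 and 183 in the RBPJ knockdown. The replicates of each group lay close together, and LRRN2 was higher by 0.80 ± 0.16 (limma adjusted p = 0.418, and 0.0219 with the block).

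PDZD4, a PDZ domain protein, stood at 773 and 871 in the controls and 1132 to 1353 in the knockdowns, and TANC2, a scaffold protein, at 135 and 112 in the controls and 184 to 319 in the knockdowns. SGPL1, the lyase that degrades sphingosine-1-phosphate, stood at 589.97 and 696 in the controls and 868 to 1018 in the knockdowns. UCP2, a mitochondrial carrier, stood at 94.1 and 78.4 in the controls, 236 and 138 in the NOTCH1 knockdown and 208 and 152 in the RBPJ knockdown. Its first replicates were the higher ones in every group. PELI3, a ubiquitin ligase of the Pellino family, stood at 136 and 160.2 in the controls and 222 to 302 in the knockdowns, RAB3IL1, an exchange factor for Rab proteins, at 259 and 313 in the controls and 382 to 474 in the knockdowns, and KIAA1671 at 78.8 and 74.5 in the controls and 114 to 209 in the knockdowns. AGO3, an Argonaute protein that carries small RNAs, was low in the controls at 15.1 and 9.57 and stood at 54.8 and 46.05 in the NOTCH1 knockdown and 23.5 and 37.8 in the RBPJ knockdown. The log2 fold changes of these 8 genes ran from 0.55 (SGPL1) to 1.60 (AGO3), all with a limma adjusted p above the threshold, and all 8 passed it with the block.

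Among the lower genes of appreciable level, LIN52, a subunit of the MuvB core that regulates cell cycle genes, stood at 159 and 219 in the controls, 84.6 and 90.98 in the NOTCH1 knockdown and 97.8 and 91.9 in the RBPJ knockdown. The 4 knockdown libraries lay close together and below both controls. The mean was 189 ± 42.9 (SD, n = 2) for controls and 91.3 ± 5.38 (SD, n = 4) for knockdowns, a log2 fold change of -1.03 ± 0.20 (limma adjusted p = 0.418, and 0.0196 with the block). CENPI, a centromere protein needed for chromosome segregation, stood at 888 and 921 in the controls, 545 and 631 in the NOTCH1 knockdown and 679 and 681 in the RBPJ knockdown. Both controls were well above all knockdown libraries. PHGDH, the first enzyme of serine synthesis, stood at 275 and 305 in the controls, 157 and 169 in the NOTCH1 knockdown and 174 and 211 in the RBPJ knockdown. Its values in the knockdowns did not reach those of the controls in any library.

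Other leading lower genes were of several kinds. C1QBP, a mitochondrial matrix protein, stood at 10274 and 10495 in the controls and 7769.8 to 8641 in the knockdowns, and GLYAT, a mitochondrial glycine acyltransferase, at 2307 and 2221 in the controls and 1564 to 2098 in the knockdowns. RPL39, a protein of the large ribosomal subunit, stood at 3625 and 3810.3 in the controls and 2654 to 3048 in the knockdowns. CTNNAL1, an alpha-catenin-like protein, stood at 793 and 751 in the controls and 519 to 646 in the knockdowns and MEP1B, a subunit of the protease meprin, at 167 and 141 in the controls and 52.1 to 107 in the knockdowns. The histone gene listed as H2B stood at 112 and 120.2 in the controls and 51.4 to 81.8 in the knockdowns. Reads of histone and ribosomal protein genes can be shared with near-identical copies, so single members of these families are uncertain. The chemokine gene GRO1 stood at 26.4 and 35.9 in the controls, 4.08 and 4.31 in the NOTCH1 knockdown and 3.08 and 11.3 in the RBPJ knockdown, and MGC137055 at 59.5 and 57.2 in the controls and 18.4 to 27.8 in the knockdowns. DMRTC2, a DMRT family gene known from germ cells, stood at 46.5 and 46.8 in the controls, 14.3 and 20.5 in the NOTCH1 knockdown and 8.46 and 16.4 in the RBPJ knockdown. CENPI, PHGDH, C1QBP, GLYAT, RPL39 and GRO1 passed the adjusted threshold with the block, while CTNNAL1, MEP1B, H2B, MGC137055 and DMRTC2 did not.

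**Figure D2:**
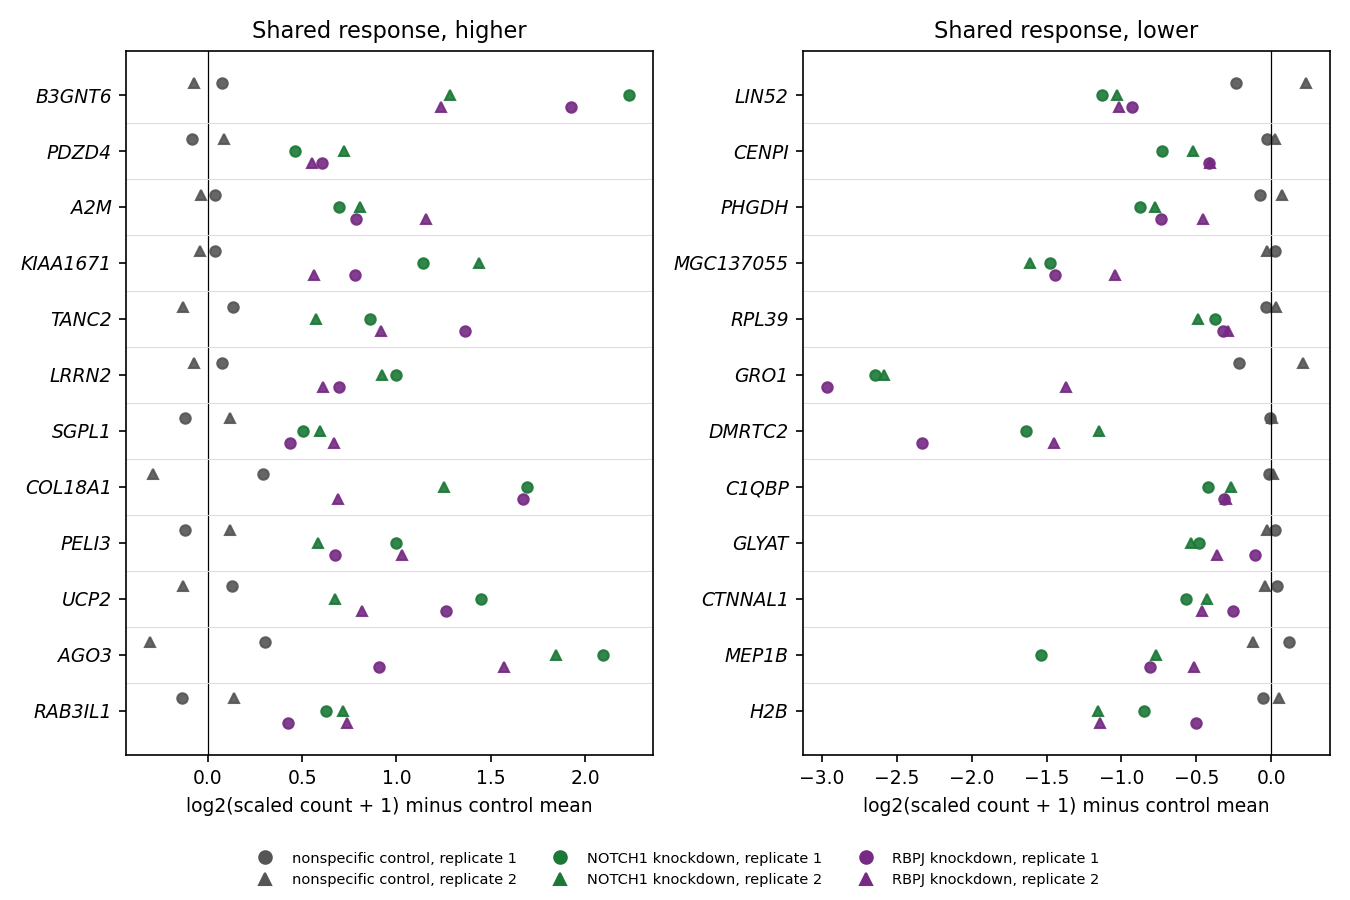
Each library's log2(scaled count + 1) minus the control mean (horizontal axis) for the 12 higher genes (left) and 12 lower genes (right) of the shared response with the smallest unadjusted p. Colours mark the groups, circles replicate 1 and triangles replicate 2. By the way they were chosen, the 4 knockdown libraries lie on 1 side of both controls in every row, and GRO1 extends farthest, to a pooled log2 fold change of -2.39.

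The widest separations between the groups were mostly among low transcripts. On the higher side B3GNT6 had the widest distance, 1.16 on the log2 scale. It was followed by SEMA5A, a semaphorin, at 4.09 and 4.65 in the controls and 10.4 to 17.2 in the knockdowns, and by FAM124A at 3.17 and 4.36 in the controls and 9.69 to 18.5 in the knockdowns. FDXACB1 stood at 4.97 and 5.52 in the controls and 10.9 to 14.8 in the knockdowns and IL17RE, an interleukin-17 receptor subunit, at 11.6 and 8.72 in the controls and 21.5 to 30.8 in the knockdowns. On the lower side MEIOC, a gene known for its part in meiotic prophase, stood at 25.3 and 20.7 in the controls, 3.07 and 5.38 in the NOTCH1 knockdown and 8.45 and 2.05 in the RBPJ knockdown, a distance of 1.201. The next were GRO1, DMRTC2, MGC137055 and STAT4, a signal transducer of cytokine receptors, at 22.2 and 18.5 in the controls and 3.07 to 9.24 in the knockdowns. In the fit of all 6 libraries none of these reached the adjusted threshold without the block.

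Gene lists are described below by the number of members in the shared response and by their median log2 fold change, beside 7.96% higher, 7.92% lower and a median of -0.0003 over all genes, and they were given no test. The lists were chosen with earlier results of these data known, so a share above that of all genes is no independent support. Within the NOTCH pathway the members of the shared response lay on both sides of the control. Of 8 receptors and ligands tested, 2 were higher (25%) and 1 was lower (12.5%), and the median log2 fold change was -0.024. The receptor NOTCH4 stood at 34.8 and 38.2 in the controls, 52.1 and 50.6 in the NOTCH1 knockdown and 46.1 and 52.3 in the RBPJ knockdown. The ligand JAG2 stood at 1186 and 1169.6 in the controls, 1471 and 1346 in the NOTCH1 knockdown and 1267 and 1393 in the RBPJ knockdown. DLL3, a divergent ligand that does not activate receptors on neighbouring cells, stood at 108 and 104 in the controls and 75.4 to 103 in the knockdowns. All 3 missed the threshold, with a smallest limma adjusted p of 0.761. None of 19 tested genes of the RBPJ-containing transcription complex and its cofactors was in the shared response (median 0.060). Of 22 genes of receptor processing and trafficking, 2 were higher (9.09%) and 1 lower (4.55%), with a median of 0.059. NUMBL, related to the NOTCH antagonist NUMB, stood at 78.1 and 121 in the controls, 167 and 153 in the NOTCH1 knockdown and 151 and 224 in the RBPJ knockdown. RFNG, a Fringe glycosyltransferase that modifies receptors, stood at 189 and 195 in the controls and 199.99 to 242 in the knockdowns, and NEURL1, a ubiquitin ligase that acts on ligands, at 31.4 and 37.9 in the controls and 10.6 to 23.1 in the knockdowns.

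Transcripts of known NOTCH targets lay on both sides of the control. Of 17 tested, 3 were higher (17.6%) and 2 lower (11.8%) in the shared response, and the median was 0.14. HES1, a repressor and a standard target, stood at 275 and 345 in the controls, 387 and 357 in the NOTCH1 knockdown and 348 and 367 in the RBPJ knockdown. The nearest knockdown library was scarcely above the second control, and the log2 fold change was 0.24 ± 0.14 (limma adjusted p = 0.794). HEYL, a related repressor, stood at 87.9 and 52.3 in the controls, 106 and 154 in the NOTCH1 knockdown and 91.5 and 132 in the RBPJ knockdown. All knockdown values were above both controls. HEY2 had the opposite sign, at 72.9 and 50.2 in the controls, 30.7 and 39.8 in the NOTCH1 knockdown and 39.2 and 43.1 in the RBPJ knockdown. TRIB2, a pseudokinase, stood at 440.4 and 366 in the controls and 505 to 650.4 in the knockdowns. ID3, an inhibitor of basic helix-loop-helix factors, stood at 47.6 and 51.04 in the controls, 7.14 and 35.6 in the NOTCH1 knockdown and 9.23 and 24.7 in the RBPJ knockdown. The first replicates of both knockdowns held the lowest ID3 values. The remaining HES and HEY genes measured were HES2 (0.17), HES6 (-0.025), HES7 (-1.38) and HEY1 (-0.021), given as log2 fold changes. Their groups overlapped, and each of these 4 changed sign when some single library was left out.

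The hypoblast is the extraembryonic endoderm that later lines the blastocyst, and its factors are already transcribed in morulae. Of 23 hypoblast and endoderm markers tested, 6 were higher (26.1%, against 7.96% of all genes) and 0 were lower, while the groups of the rest overlapped. By the sign of the fold change 18 were above 0 and 5 below, and the median log2 fold change was 0.28 against -0.0003 over all genes. None of the 23 passed the adjusted threshold without the block. GATA6, the factor that specifies this lineage, stood at 7103 and 9492 in the controls, 10556 and 10410 in the NOTCH1 knockdown and 10425 and 10360 in the RBPJ knockdown. The 4 knockdown libraries were nearly equal, and the controls differed more from each other than the knockdowns did. GATA4, its relative, stood at 59.1 and 46.9 in the controls and 74.6 to 90.3 in the knockdowns. FOXA1, a forkhead factor, stood at 9.505 and 8.73 in the controls, 10.2 and 10.8 in the NOTCH1 knockdown and 16.9 and 22.6 in the RBPJ knockdown. RSPO3, a WNT-potentiating secreted protein, stood at 440.4 and 455 in the controls and 543 to 636 in the knockdowns.

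The other 2 members were matrix proteins. NID2, a basement membrane linker, stood at 2748 and 2309 in the controls, 3206 and 3429 in the NOTCH1 knockdown and 3318 and 3463 in the RBPJ knockdown, higher by 0.41 ± 0.10 (limma adjusted p = 0.554, and 0.0276 with the block). FN1, fibronectin, stood at 37166 and 38800 in the controls, 59510 and 45873 in the NOTCH1 knockdown and 53316 and 43165 in the RBPJ knockdown, higher by 0.40 ± 0.12 (limma adjusted p = 0.665, and 0.0347 with the block). With quantile normalization the FN1 log2 fold change was 0.092 (limma adjusted p = 0.88). SOX17 stood at 91.9 and 133 in the controls, 126 and 142 in the NOTCH1 knockdown and 161 and 208 in the RBPJ knockdown, so the first NOTCH1 library overlapped the controls. PDGFRA, a receptor typical of primitive endoderm, had a log2 fold change of -0.049. The summed level of the 23 markers was 70701 and 78415 in the controls and 84084 to 98087 in the knockdowns, and FN1 was its largest part. With FN1 taken out, the second control lay above the first NOTCH1 library. The separation of the groups in the sum thus rests on FN1.

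Trophectoderm and inner cell mass markers had members of the shared response on the higher side only. Of 26 trophectoderm markers, 3 were higher (11.5%, against 7.96% of all genes) and 0 lower (median 0.072). KLF5 stood at 4611 and 4325 in the controls and 4659 to 5569 in the knockdowns, ARID3A at 187 and 179.99 in the controls and 195 to 252 in the knockdowns and HAND1 at 4.23 and 9.81 in the controls, 10.2 and 21.5 in the NOTCH1 knockdown and 13.1 and 14.4 in the RBPJ knockdown. CDX2, at 654 and 744 in the controls, 976 and 832 in the NOTCH1 knockdown and 682 and 624 in the RBPJ knockdown, and GATA3, at 577 and 515 in the controls, 1018 and 856 in the NOTCH1 knockdown and 737 and 391 in the RBPJ knockdown, had overlapping groups. In both genes the NOTCH1 knockdown was above the controls and the RBPJ knockdown overlapped them. Over the 26 trophectoderm markers the median against the control was 0.16 for the NOTCH1 knockdown and -0.006 for the RBPJ knockdown. The 2 trophectoderm markers with an unadjusted limma p below 0.05 both had a fold change below 0 and overlapping groups. The lowest log2 fold change of that list was -1.60 and the highest 1.02. GATA3 differed between the knockdowns by 0.80 on the log2 scale, which passed the adjusted threshold with the block (limma adjusted p = 0.0238) and not without it (0.999). Of 22 inner cell mass and pluripotency markers, 3 were higher (13.6%) and 0 lower (median 0.067). LIN28A, an RNA-binding protein of pluripotent cells, stood at 544 and 466 in the controls, 812 and 719 in the NOTCH1 knockdown and 741 and 618 in the RBPJ knockdown. All knockdown libraries were higher, by 0.51 ± 0.12 (limma adjusted p = 0.595, and 0.023 with the block). SALL4 stood at 3663 and 4706 in the controls and 4744 to 5103 in the knockdowns and STAT3 at 2204 and 2326 in the controls and 2383 to 2710.2 in the knockdowns.

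Oocyte and maternal transcripts are stored in the oocyte and are normally cleared as the embryo's own genome takes over. Of 27 tested, 8 were lower (29.6%, against 7.92% of all genes) and 0 were higher, while the groups of the rest overlapped. By the sign of the fold change 22 were below 0 and 5 above, and the median log2 fold change was -0.58, or -0.19 over the members with a mean of at least 100. None of the 27 passed the adjusted threshold without the block. H1FOO, the oocyte linker histone, stood at 40.9 and 51.7 in the controls, 1.04 and 17.1 in the NOTCH1 knockdown and 7.06 and 23.4 in the RBPJ knockdown. Its lowest value was in the first NOTCH1 library, and it passed the adjusted threshold only with the block (log2 fold change -2.35 ± 0.74, limma adjusted p = 0.665, and 0.0404 with the block). Without the first NOTCH1 library the H1FOO log2 fold change was -1.56, and with a pseudocount of 10 it was -1.46. ZP3, a protein of the egg coat, stood at 62.4 and 79.5 in the controls, 30.6 and 58.2 in the NOTCH1 knockdown and 43.1 and 31.8 in the RBPJ knockdown. ZAR1, an RNA-binding protein of the oocyte, stood at 20.5 and 15.5 in the controls, 6.79 and 7.16 in the NOTCH1 knockdown and 12.4 and 8.78 in the RBPJ knockdown. OOEP and NLRP5, members of the subcortical maternal complex, stood at 73.98 and 113 in the controls and 42.8 to 72.9 in the knockdowns and at 21.1 and 21.8 in the controls and 10.3 to 17.4 in the knockdowns. NLRP9 stood at 9.504 and 25.1 in the controls and 4.09 to 9.23 in the knockdowns, the cyclin CCNB3 at 324 and 358 in the controls and 251 to 303 in the knockdowns, and the deadenylase subunit CNOT6L at 453 and 464 in the controls and 285 to 426 in the knockdowns.

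The maternal transcripts varied strongly between libraries of 1 group. The median over the 27 genes of each library's deviation from the mean of all 6 libraries was 0.14 and 0.56 in the controls, -0.57 and 0.14 in the NOTCH1 knockdown and -0.12 and 0.055 in the RBPJ knockdown, on the log2 scale. The groups overlapped on this measure, although the summed level of the list was 4771 and 4944 in the controls and 3901 to 4259.8 in the knockdowns. Within each replicate number both knockdown medians were below that of the control. By the median the first replicate was the lower one in each group. MOS, the oocyte kinase, shows the spread, at 29.6 and 130.4 in the controls, 6.12 and 40.95 in the NOTCH1 knockdown and 8.46 and 35.98 in the RBPJ knockdown. It passed with the block (limma adjusted p = 0.0202) although its groups overlapped. None of 11 tested markers of embryonic genome activation belonged to the shared response (median -0.078).

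**Figure D3:**
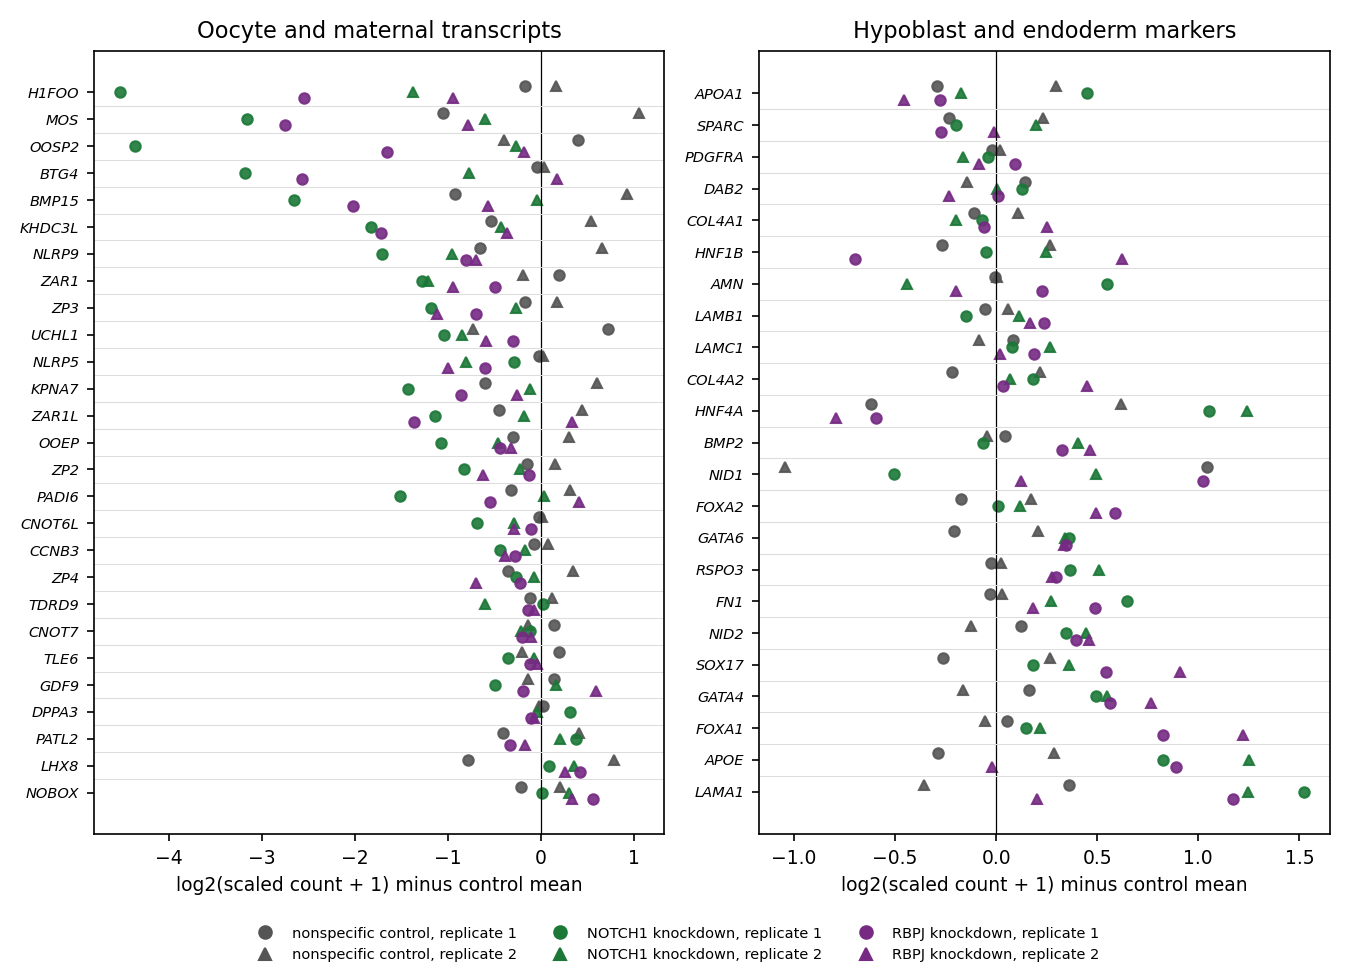
Each library's log2(scaled count + 1) minus the control mean (horizontal axis) for all 27 oocyte and maternal transcripts tested (left) and all 23 hypoblast and endoderm markers tested (right), ordered by the pooled log2 fold change. Circles are replicate 1 and triangles replicate 2. On the left the first NOTCH1 library is far below the others for genes such as H1FOO, and on the right 6 genes have all 4 knockdown libraries above both controls.

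Epithelial and cytoskeletal lists had medians from 0.073 to 0.12. Of 38 junction and polarity genes, 3 were higher and 0 lower (median 0.12), among them the tight junction genes CLDN4 (0.18) and MARVELD3 (0.22). Of 13 genes of fluid transport, 3 were higher (23.1%, against 7.96% of all genes) and 0 lower (median 0.11). SCNN1A, a subunit of the epithelial sodium channel, stood at 234 and 284 in the controls, 359 and 413 in the NOTCH1 knockdown and 379 and 313 in the RBPJ knockdown. SLC9A3R1, a scaffold for transporters, had a log2 fold change of 0.23, and the sodium-hydrogen exchanger SLC9A3 stood at 5.28 and 3.28 in the controls and 5.38 to 25.6 in the knockdowns. Of 30 actomyosin genes, 5 were higher (16.7%) and 1 lower (3.33%), with a median of 0.073. FLNA, an actin crosslinker, stood at 2937 and 2389 in the controls, 4133 and 3632 in the NOTCH1 knockdown and 3936 and 3246 in the RBPJ knockdown, higher by 0.49 ± 0.11 (limma adjusted p = 0.554, and 0.00477 with the block). ACTB, ACTN1 and SHROOM3 were higher by 0.22, 0.20 and 0.18, and the cytokinesis protein ANLN was lower (-0.28). With quantile normalization the ACTN1 log2 fold change was 0.083.

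The Hippo pathway, which reads cell position in the morula, had 2 higher and 1 lower member of 27 (median 0.074). The coactivator YAP1 stood at 471 and 455 in the controls and 527 to 611 in the knockdowns, the DNA-binding partner TEAD1 at 195 and 163 in the controls and 197 to 265 in the knockdowns, and LATS1, the kinase that inhibits YAP1, at 268 and 265 in the controls and 211 to 245 in the knockdowns. Among 37 WNT pathway genes 3 were higher and 1 was lower (median 0.035). The ligand WNT11 stood at 88.7 and 118 in the controls, 70.5 and 57.1 in the NOTCH1 knockdown and 50.7 and 47.2 in the RBPJ knockdown. The higher ones were the receptor FZD4 (0.23), the feedback inhibitor AXIN2 (0.20) and the repressor TCF7L1 (0.25). Among 38 genes of TGF-beta, NODAL and BMP signalling 1 was higher and 3 were lower (median 0.038): TGFB1 was higher (0.34), and its receptor TGFBR2 (-0.63), the BMP antagonist CHRD (-0.64) and ID3 were lower. FGF and MAPK genes had 1 higher and 3 lower members of 42 (median 0.040), and JAK and STAT3 genes 2 and 2 of 20 (median 0.047). DUSP4, a phosphatase induced by MAPK signalling, was higher (0.51), and the kinase BRAF was lower (-0.41).

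Genes of protein synthesis had their members of the shared response mainly on the lower side. Of 76 cytosolic ribosomal protein genes, 20 were lower (26.3%) and 0 higher, and the median log2 fold change was -0.13. The range over the list was -0.59 to 0.13. Against the control the median was -0.076 for the NOTCH1 knockdown and -0.15 for the RBPJ knockdown. The list's median deviation, measured as for the maternal transcripts, was 0.127 and 0.025 in the controls. It was 0.057 and -0.040 in the NOTCH1 knockdown and -0.077 and -0.074 in the RBPJ knockdown. The first NOTCH1 library lay between the controls, so the groups overlapped on this measure. FAU, which encodes a fusion of a ubiquitin-like protein with RPS30, stood at 5738 and 5974 in the controls, 4937 and 4879 in the NOTCH1 knockdown and 5043 and 4805 in the RBPJ knockdown. RPL12 had the lowest fold change of the list, at 1624 and 1367 in the controls, 1300.4 and 709.99 in the NOTCH1 knockdown and 959 and 1088 in the RBPJ knockdown, and RPL9 stood at 5546 and 4674 in the controls and 4161 to 4506 in the knockdowns. RPL12 and RPL39 passed the adjusted threshold with the block. Without the second NOTCH1 library the RPL12 log2 fold change was -0.37 against -0.59 with all libraries. Of 49 ribosome biogenesis genes, 13 were lower (26.5%) and 1 was higher, with a median of -0.081. POLR1D, a subunit of RNA polymerases I and III, had a log2 fold change of -0.30, and the rRNA-processing gene UTP4 -0.24.

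Of 48 genes of G2 and mitosis, 13 were lower (27.1%) and 1 was higher, with a median of -0.12. The list's median deviation, measured as for the maternal transcripts, was 0.175 and -0.031 in the controls. It was 0.025 and -0.012 in the NOTCH1 knockdown and -0.051 and -0.13 in the RBPJ knockdown. The second control lay below both NOTCH1 knockdown libraries, so the groups overlapped on this measure. Over the alternatives described below, the median log2 fold change ran from -0.205 to 0.0054. Besides CENPI, the phosphatase CDC25B stood at 379.8 and 353 in the controls, 242 and 229 in the NOTCH1 knockdown and 332 and 205 in the RBPJ knockdown, securin (PTTG1) at 1068 and 905 in the controls and 714 to 818 in the knockdowns, the Aurora B partner CDCA8 at 1509.5 and 1433 in the controls and 1059 to 1348 in the knockdowns and the kinase CDK1 at 783 and 596 in the controls and 505 to 579 in the knockdowns. The higher member was PLK1, a mitotic kinase, at 2435 and 2571 in the controls and 2614 to 3024 in the knockdowns. Of 50 DNA replication genes 4 were higher and 4 lower (median -0.040), among them the ligase LIG1 (0.22) and the initiation factor MCM10 (-0.25). Of 26 genes of D-type cyclins, CDK inhibitors and the MYC network, 3 were higher (11.5%) and 5 lower (19.2%), with a median of -0.069. CCND3 stood at 479 and 432 in the controls and 515 to 766 in the knockdowns, and MXI1, an antagonist of MYC, at 80.9 and 162 in the controls, 50.4 and 72.6 in the NOTCH1 knockdown and 65.6 and 30.9 in the RBPJ knockdown.

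Of 37 genes of the integrated stress response and the unfolded protein response, 10 were lower (27.0%) and 0 higher, with a median of -0.12. HSPA5, a chaperone of the endoplasmic reticulum, stood at 2955 and 2759 in the controls, 2159 and 2342 in the NOTCH1 knockdown and 2329 and 2317 in the RBPJ knockdown. The factors XBP1 (-0.31), DDIT3 (-0.39) and ATF4 (-0.14) and the degradation-pathway gene HERPUD1 (-0.43) were lower as well. This list shares PHGDH and PSAT1 with the serine list. Of 32 serine and one-carbon genes 3 were higher (9.38%) and 6 lower (18.75%), with a median of -0.085. All 3 enzymes of serine synthesis were among the lower ones, with log2 fold changes of -0.71 for PHGDH, -0.38 for PSAT1 and -0.57 for PSPH. AHCY, which hydrolyses S-adenosylhomocysteine, stood at 5867 and 5628 in the controls, 7870 and 7294 in the NOTCH1 knockdown and 7329.9 and 6368 in the RBPJ knockdown and passed with the block (limma adjusted p = 0.657, and 0.0476 with the block).

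Of 15 xenobiotic response genes, 5 were lower (33.3%) and 0 higher, with a median of -0.15. CYP1B1, an enzyme induced through the aryl hydrocarbon receptor, stood at 227 and 101 in the controls, 23.1 and 72.98 in the NOTCH1 knockdown and 66.7 and 93.6 in the RBPJ knockdown. The controls differed more than 2-fold, and all knockdown libraries were below the lower one. The oxidoreductase NQO1 stood at 20.1 and 20.7 in the controls and 9.69 to 17.5 in the knockdowns, the receptor's partner ARNT at 249 and 241 in the controls and 201 to 229 in the knockdowns and the antioxidant factor NFE2L2 at 919 and 880.4 in the controls and 781 to 855 in the knockdowns. CYP1A1, the standard reporter of the receptor, stood at 470.01 and 231 in the controls, 81.7 and 87.2 in the NOTCH1 knockdown and 138 and 274 in the RBPJ knockdown. Its second RBPJ library lay between the controls, so it was outside the shared response, and it passed with the block (limma adjusted p = 0.0174).

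Lipid and sugar metabolism had members on both sides. Of 34 genes of cholesterol and fatty acid synthesis 3 were higher and 4 lower (median -0.063). The sterol enzymes MSMO1 (-0.50) and SQLE (-0.35) were lower, and SCAP, the escort protein of the sterol-regulated SREBP factors, stood at 1301 and 1501 in the controls and 1730 to 1919 in the knockdowns. Of 33 genes of glycolysis and glucose transport 4 were higher and 2 lower (median 0.053). HK1 (0.22) and HK2 (0.21), the hexokinases, were higher, and the transporter SLC2A4 was lower (-0.43). Of 29 lysosomal genes 3 were higher and 0 lower (median 0.048): the protease CTSL (0.41), the cholesterol transporter NPC1 (0.42) and the peptidase TPP1 (0.39). Of 33 glycosyltransferases of mucin-type and lactosamine glycans, the family of B3GNT6, 5 were higher (15.2%) and 1 lower (3.03%), with a median of 0.056. B3GNT3 stood at 178 and 193 in the controls, 283 and 272 in the NOTCH1 knockdown and 236 and 214 in the RBPJ knockdown, and ST6GALNAC1, a sialyltransferase, at 335 and 403 in the controls and 446 to 509 in the knockdowns.

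The remaining lists differed in their share of members. Nuclear-encoded oxidative phosphorylation genes had 1 higher and 7 lower members of 75 (median -0.038), while 0 of the 13 genes encoded by mitochondrial DNA were in the shared response (median 0.080). Metallothionein and zinc handling genes had 0 and 1 of 17 (median -0.056), apoptosis regulators 1 and 1 of 23 (median -0.036), and interferon-stimulated genes 0 and 2 of 16 (median 0.009). Genes of DNA methylation and Polycomb repression had 4 and 4 of 41 (9.76% in each direction, median -0.006). Small RNA machinery had 1 higher member, AGO3, and 4 lower ones of 17 (23.5%, against 7.92% of all genes), with a median of -0.035. The lower ones included the germline genes MAEL (-0.44) and DDX4 (-0.45).

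Markers of other cells that a pool could carry were compared as far as they reached the minimum mean of 10, which 7 cumulus, granulosa and fibroblast markers and 11 blood and immune markers did not. Of 14 tested markers of cumulus cells, granulosa cells and fibroblasts, 1 was higher, CYP19A1 (0.31), and 0 were lower. Their summed level was 1345 and 1388 in the controls and 1223 to 1439 in the knockdowns. The list's median deviation, measured as for the maternal transcripts, was -0.41 in the first NOTCH1 library and -0.038 to 0.17 in the other libraries. That library also had the lowest median deviation of the maternal transcripts. Of 8 tested blood and immune markers 0 were in the shared response (median -0.18), and their summed level ran from 2216 to 3587 with overlapping groups. The lists held 23 and 22 genes, and some of these had no named row and could not be looked at. No marker with a named row was at 0 in all libraries.

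**Figure D4:**
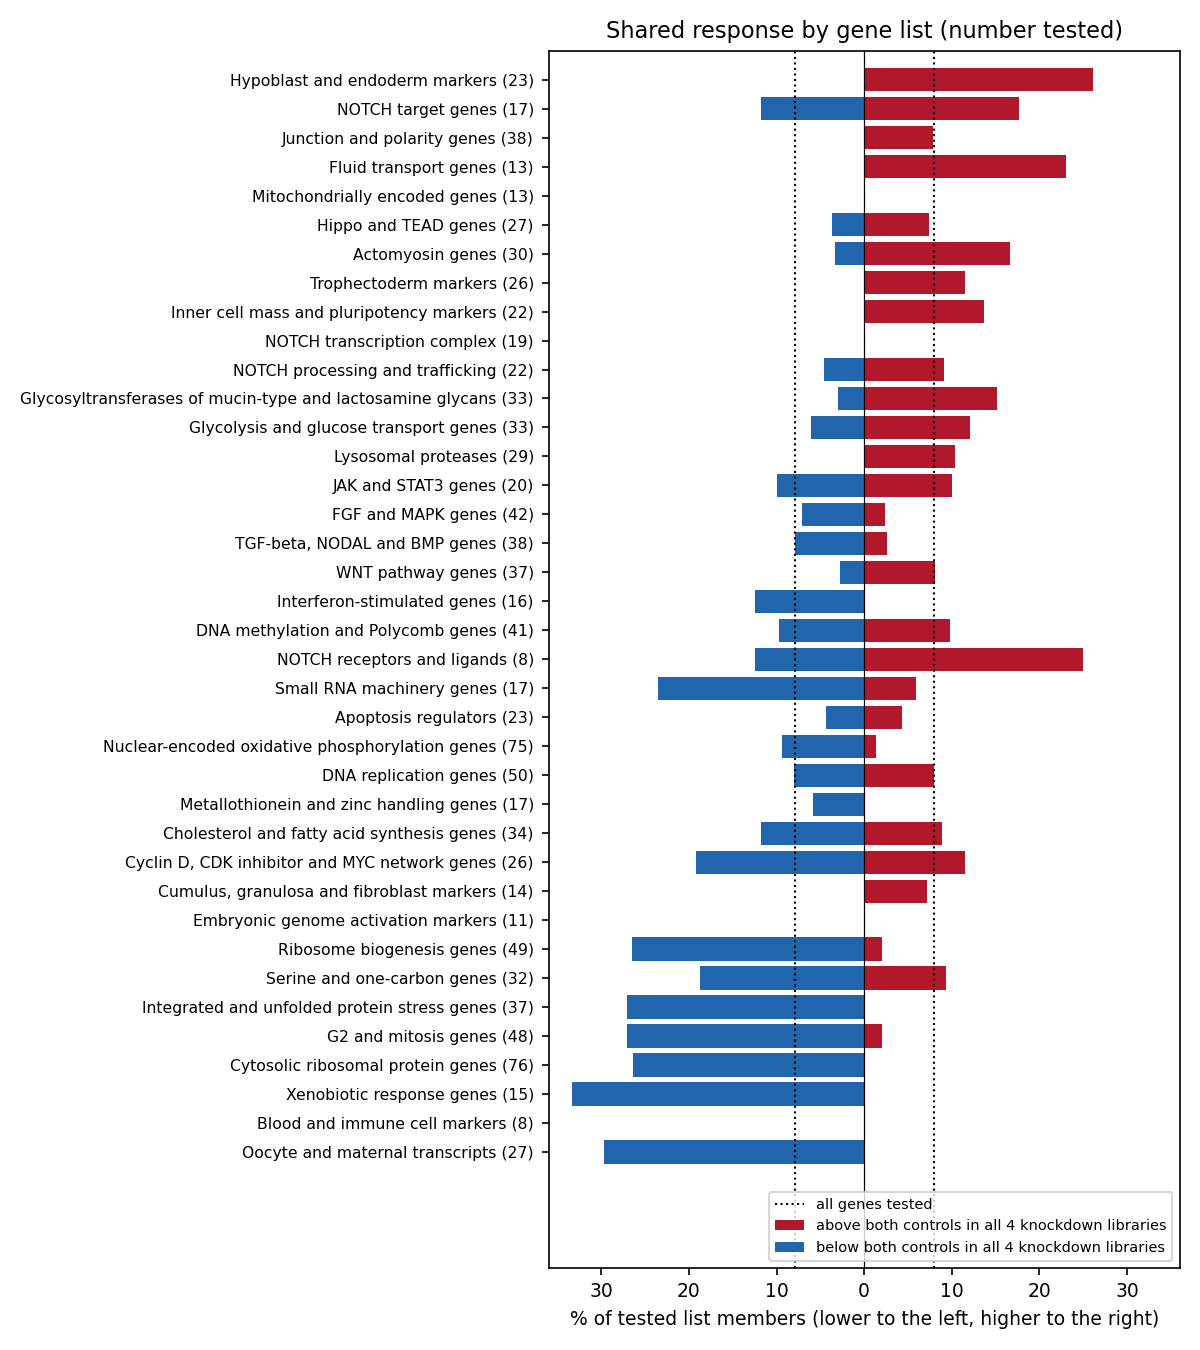
Share of each gene list's tested members that lay above both controls in all 4 knockdown libraries (red, to the right) or below both (blue, to the left), in percent, with the number tested in brackets. Lists are ordered by their median log2 fold change, and dotted lines give the share of all 12101 genes, 7.96% higher and 7.92% lower. Hypoblast and endoderm markers reach 26.1% on the higher side, and oocyte and maternal transcripts 29.6% on the lower side.

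The shared response pools 2 depletions that need not be of equal size, so they were also tested against each other, a contrast that uses no control library. In this fit 1 gene passed, RBPJ, which is 0.00826% of the genes tested (NOTCH1 knockdown minus RBPJ knockdown 1.82 ± 0.18, limma adjusted p = 0.00332). With the replicate block 15 genes passed (0.124%), RBPJ and GATA3 among them, and 0 of the 15 were in the shared response. At an unadjusted p below 0.05, 441 genes differed (3.64%). Among members of the shared response 25 of the higher genes (2.60%) and 15 of the lower genes (1.56%) did, and 0 passed the adjusted threshold with or without the block. Membership asks the 4 knockdown libraries to lie on 1 side of the control, so these shares are a description. The NOTCH1 knockdown was the farther one from the control in 583 of 963 higher and 517 of 959 lower members, against 6567 of all 12101 genes.

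The members that differed most between the depletions were 4 genes, none past the adjusted threshold. SHROOM1, an actin-binding protein, stood at 277 and 238 in the controls, 459 and 432 in the NOTCH1 knockdown and 279 and 294 in the RBPJ knockdown. The RBPJ knockdown was just above the higher control. TCAM1 stood at 139 and 177 in the controls, 61.3 and 75.4 in the NOTCH1 knockdown and 131 and 129 in the RBPJ knockdown, with the NOTCH1 knockdown the lower group. CYP4F2, a fatty acid hydroxylase, had the reverse order, at 90.2 and 68.4 in the controls, 60.02 and 61.7 in the NOTCH1 knockdown and 31.02 and 18.2 in the RBPJ knockdown. MKRN1, a ubiquitin ligase, stood at 2902 and 2988 in the controls, 3569.6 and 3892 in the NOTCH1 knockdown and 3058 and 3021 in the RBPJ knockdown. The differences between the knockdowns were 0.64, -0.93, 1.32 and 0.29 on the log2 scale, with limma adjusted p from 0.826 to 0.999. For B3GNT6 the difference was 0.18 ± 0.29, for PDZD4 0.014 ± 0.13 and for LIN52 -0.11 ± 0.23. With 2 libraries a group, a test that misses the threshold does not show that the depletions act alike.

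**Figure D5:**
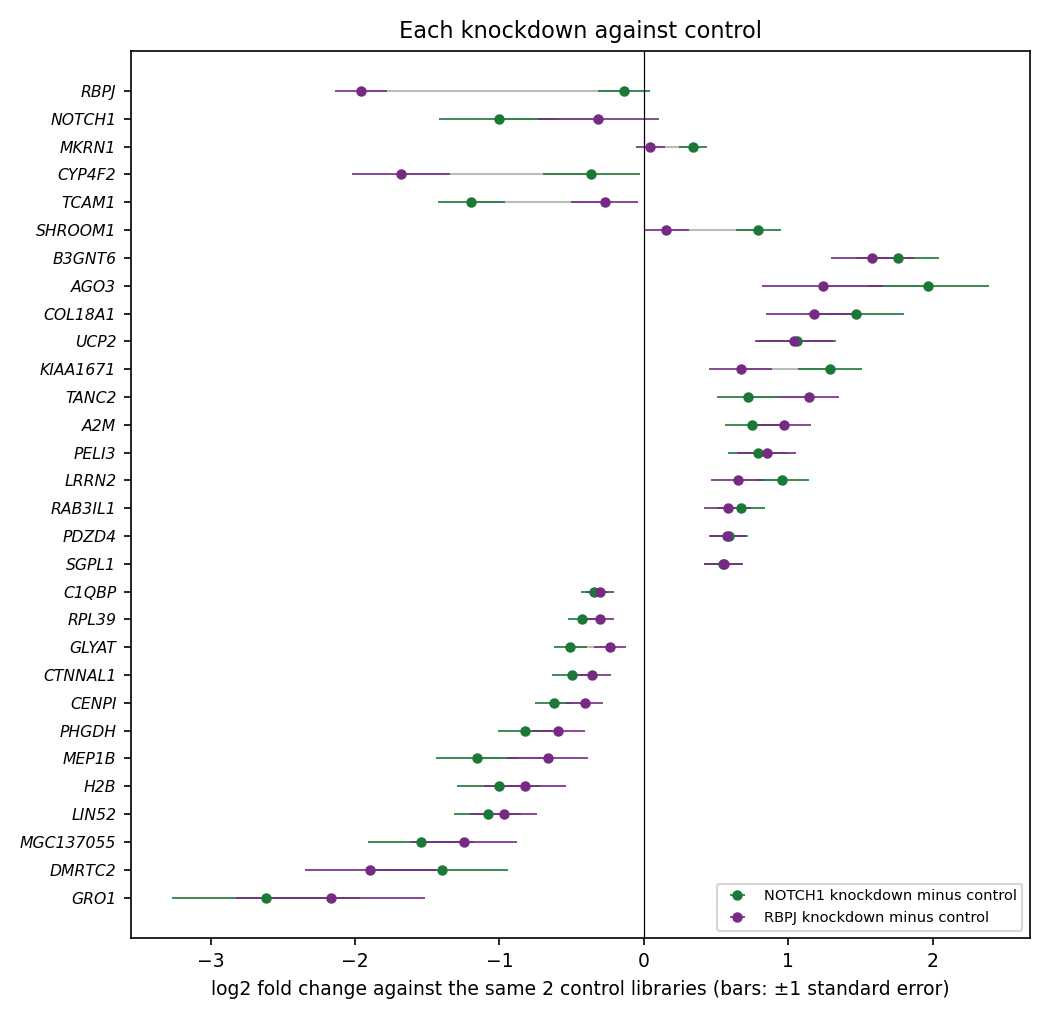
Log2 fold change against the same 2 control libraries (horizontal axis) for the NOTCH1 knockdown (green) and the RBPJ knockdown (purple), with bars of 1 standard error, for the 24 leading members, 4 members that differ most between the knockdowns and both targeted genes. The knockdowns share their controls, so likeness between the colours is no independent support. RBPJ and CYP4F2 are farther from the control in the RBPJ knockdown, and TCAM1 and SHROOM1 in the NOTCH1 knockdown.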

How the data were processed

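RNA-seq of 6 libraries was analysed from 1 table of scaled read counts (a signal value per gene and library), which the authors deposited. That the values are counts divided by scaling factors is judged from the values. Salmon 0.14.1, DESeq2 and ARS-UCD1.2 are named per the submitters' processing notes, with no role or order. Whole reads could not be recovered, so no count test was run. Of 17922 rows, 2551 without a gene name (6.20% to 7.22% of a library) were left out, and 15371 remained, 57 of them repeating a symbol. Strand use in counting is not given in the sources used here, so antisense and overlapping genes may share reads. Spike-in RNA and a reference genome of this build were not used here.

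Values were tested as log2(value + 1), which understates fold changes of low genes, with limma 3.58.1 in R 4.3.3 (trended variance, group means, 3 residual degrees of freedom). The contrast was the average of both knockdown groups minus control. Deviations of same-numbered replicates from their group means correlated across genes at 0.149 to 0.213 for the 3 pairs of groups, over the 0.1 taken to pair libraries, so blocked values are printed where they change a call. This was judged with the blocked calls in view. Named genes were both targets, the 12 members with the smallest p and the 5 with the widest distance in each direction, up to 4 members per list with all HES and HEY genes, and the 4 members that differed most between knockdowns. Others are given as examples chosen after their values were seen. Members and the 38 lists were chosen with earlier results of these data known. On simulated data the fit recovered 77% of 2-fold and 95% of 4-fold changes, with 13 false calls among 185 calls. The simulation held no replicate effect, so it checks the fit and not these libraries. Alternatives were pseudocounts, filters, scalings, variance options, a gap of at least 0.1, the replicate block and leaving out each library. Figures used matplotlib 3.10.9 in Python 3.11.15.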

Additional observations from a re-analysis of the deposited data

Results flagged for a closer look

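For 9 of 149 named genes, 1 of the 4 knockdown libraries stood apart from the other 3 (Dixon's test at its 95% critical value, which chance passes in about 1 in 20 groups). BCL2L1 had its highest value, 2024, in the first NOTCH1 library, as did SCAP at 1919. HSPA5 at 2159 and SLC2A4 at 107 had their lowest values in that library. FDXACB1 at 10.9 and STAT3 at 2383 were lowest in the second NOTCH1 library. In the second RBPJ library GRO1 was highest at 11.3 and NOTCH1 was highest at 125, while YAP1 was lowest at 527.

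RBPJ differed between the knockdowns by 1.82 on the log2 scale (NOTCH1 minus RBPJ, limma adjusted p = 0.00332), being lower in both RBPJ knockdown libraries.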

How the results depend on the processing

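Calls rested on the block. With the replicate block 39 genes were higher and 20 lower against 0 and 0 without it, 1424 genes had an unadjusted p below 0.05 against 788, and 15 genes differed between the knockdowns against 1. Leaving out single libraries gave 0 to 1 higher and 0 to 2 lower calls. Without the second control these were GSN higher and IGFBP5 and TKDP1 lower, and without the second NOTCH1 or the second RBPJ library B3GNT6 was the call. Between the knockdowns leaving out a library gave 0 to 3 calls, 0 without the first NOTCH1 library and 3 without the first RBPJ library (RBPJ, GATA3 and KRT6A). Without the second NOTCH1 library the call was SDS (log2 difference -2.003, limma adjusted p = 0.025) and not RBPJ, and without either control or the second RBPJ library it was RBPJ; variance moderation without the trend gave 0.

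The shared response depends on the number of libraries by construction, since fewer libraries are easier to separate. It ran from 1261 to 3034 higher and from 1287 to 2999 lower genes when 1 library was left out, the most without the second control; without the first control it held 2645 and 2601, and without the second RBPJ library 1451 higher genes. Asking for a gap of at least 0.1 left 400 and 319.

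Of 149 named genes, 4 changed sign, in 8 of 2347 values: HES2 (-0.032 without the first control, range -0.032 to 0.38), HES6 (0.080 without the second control, 0.030 without the second NOTCH1 and 0.063 without the second RBPJ library, range -0.13 to 0.080), HES7 (0.011 without the second control, range -2.77 to 0.011) and HEY1 (0.22 without the second control, 0.042 without the first NOTCH1 and 0.17 without the first RBPJ library, range -0.26 to 0.22). The cause was not tested. The medians of 17 of 38 lists changed sign in some alternative, among them G2 and mitosis genes (-0.21 to 0.0054), while those of the oocyte (-0.73 to -0.19), hypoblast (0.14 to 0.31), ribosomal protein (-0.16 to -0.058) and stress lists (-0.15 to -0.085) did not. With the block 27 named genes passed, and 1 passed in another setting. Depth limits low transcripts most, and 85 of the 89 members past 2-fold had a mean under 100.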

Other observations

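Further genes that passed only with the replicate block were looked at after their values were seen, so they are given as values. LAMA5, a laminin chain, stood at 365 and 325 in the controls, 617 and 444 in the NOTCH1 knockdown and 588 and 431 in the RBPJ knockdown (limma adjusted p = 0.0276 with the block). FBLN2, a fibulin of the extracellular matrix, stood at 6366 and 7316 in the controls, 11083 and 8588 in the NOTCH1 knockdown and 9099 and 8389 in the RBPJ knockdown (limma adjusted p = 0.0276 with the block). SERPINH1, the collagen chaperone, stood at 599 and 522 in the controls, 985 and 858 in the NOTCH1 knockdown and 627 and 781 in the RBPJ knockdown (limma adjusted p = 0.0421 with the block). LAMA1, another laminin chain, stood at 353 and 214 in the controls, 792 and 654 in the NOTCH1 knockdown and 620.3 and 317 in the RBPJ knockdown, and its second RBPJ library lay between the controls. Also on the higher side were NECTIN2, at 1031 and 1201 in the controls and 1447 to 1930.3 in the knockdowns, MPZL2, at 2487 and 2174 in the controls and 2872 to 3226 in the knockdowns, and the receptor tyrosine kinase KIT, at 805 and 702 in the controls and 906 to 1110.5 in the knockdowns.

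On the lower side SLC34A2, a phosphate transporter, stood at 4173 and 3948 in the controls, 3482 and 2464 in the NOTCH1 knockdown and 3452 and 2222 in the RBPJ knockdown (limma adjusted p = 0.0174 with the block). The 15 genes that passed with the block while their groups overlapped included RGS16, at 65.5 and 225 in the controls, 24.5 and 75.4 in the NOTCH1 knockdown and 27.7 and 138 in the RBPJ knockdown, and EIF4E1B, an oocyte translation factor, at 40.3 and 107 in the controls, 3.06 and 42.1 in the NOTCH1 knockdown and 5.39 and 64.9 in the RBPJ knockdown. In both, replicate 1 was below replicate 2 in each of the 3 groups. DNMT3B and NRGN were on the higher side, with log2 fold changes of 0.53 and 0.70. DNMT3B, a de novo DNA methyltransferase, had the reverse order of replicates, at 1317 and 1028 in the controls, 2724 and 1529.5 in the NOTCH1 knockdown and 1956 and 968 in the RBPJ knockdown. NRGN stood at 216 and 403 in the controls, 401 and 566 in the NOTCH1 knockdown and 447 and 526 in the RBPJ knockdown, with replicate 1 the lower one throughout.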
